A study of Homo sapiens with 4 samples.

Results

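Human mitochondrial DNA carries 13 genes of proteins and 2 of rRNAs that could be followed in a gene count table of 4 prostate cancer cell lines. Each protein gene is counted here as 1 mRNA, although MT-ATP8 and MT-ATP6 share an mRNA, as do MT-ND4L and MT-ND4. The genes were chosen by name, as all those whose symbol starts with MT-, and made up 15 of the 22637 genes in the table. Mitochondrial tRNAs were not analysed here. RNA-seq was available for LNCaP, a castration-sensitive prostatic adenocarcinoma line, for C4-2B, a castration-resistant line derived from LNCaP, and for LN-OlapR and 2B-OlapR, which were derived from LNCaP and C4-2B by chronic exposure to rising concentrations of olaparib, an inhibitor of the DNA repair enzyme PARP. Each resistant line is therefore a cell population shaped by long selection in drug, and it was kept in olaparib until plating. The labels give all 4 lines as untreated, and the drug was left out of the medium between plating and RNA isolation, for 48 hours by the deposited description. The methods give a longer time. There was 1 library per line, so no difference could be set against a spread between cultures, no test was run, and every interval given covers counting error only, at the 95% level. PCR copies are not independent molecules, so even the counting error is understated.

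Mitochondrial DNA is a small circle without introns, and its strands are called heavy and light after their base composition. POLRMT, the mitochondrial RNA polymerase, together with TFAM and TFB2M, reads each strand into a long RNA that is cut at the tRNAs between the genes. Both rRNAs and all mRNAs other than MT-ND6 come from the heavy-strand transcript, and MT-ND6 comes from the light-strand transcript. All 13 mRNAs encode subunits of the respiratory chain or ATP synthase, which also need many subunits encoded in the nucleus, and the rRNAs build the mitochondrial ribosome. Most of the mRNAs receive a poly(A) tail in the mitochondrion, MT-ND6 mRNA is known to lack one, and complexes of LRPPRC and SLIRP protect the heavy-strand mRNAs. Normal prostate epithelium is known for exporting citrate, and prostate cancer cells for oxidizing it.

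The genes lie so close together that some share bases, which bears on how reads can be counted. All positions here are from the GENCODE release 29 annotation of GRCh38, the build named in the submitters' notes, and each gene is a single exon there. The capitals mark the bases shared by the end of the first gene and the start of the second, 46 bases at chrM:8515-8584, 7 bases at chrM:10748-10778 and 1 base at chrM:9195-9219, all on the plus strand.
MT-ATP8/MT-ATP6: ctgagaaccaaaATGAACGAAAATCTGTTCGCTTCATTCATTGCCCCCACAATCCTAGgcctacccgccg
MT-ND4L/MT-ND4: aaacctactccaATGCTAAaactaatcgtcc
MT-ATP6/MT-CO3: cgacaacacataAtgacccaccaat

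In 6 of the 13 mRNAs the annotated gene ends before a last codon is complete, and a poly(A) tail is known to supply the missing bases of the stop codon. MT-ND1 and MT-CO3, which differed most between the LNCaP lines, and MT-ND4, the highest mRNA per length in LN-OlapR, are of this kind. Their plus-strand ends at chrM:4242-4262, chrM:9970-9990 and chrM:12117-12137 are shown with the bases past the last whole codon in capitals, beside the end of MT-CO2 at chrM:8249-8269, which has a whole stop codon.
MT-ND1 end: cagcattccccctcaaaccTA
MT-CO3 end: ccatctattgatgagggtctT
MT-ND4 end: tcattaccgggttttcctctT
MT-CO2 end: gggcccgtatttaccctaTAG

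The strand of MT-ND6 shows in its bases. MT-ND5 and MT-ND6 are neighbours read toward each other, and the first 60 bases of each are shown with every G in capitals, MT-ND5 at chrM:12337-12396 on the plus strand and MT-ND6 at chrM:14614-14673 on the minus strand. There were 2 G in the first and 21 in the second.
MT-ND5 start: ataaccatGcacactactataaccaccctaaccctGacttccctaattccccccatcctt
MT-ND6 start: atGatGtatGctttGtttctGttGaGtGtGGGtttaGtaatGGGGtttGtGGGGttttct
Over its whole length MT-ND6 held 35.6% G and 7.05% C, whereas the heavy-strand mRNAs held from 6.28% G in MT-ATP8 to 16.2% G in MT-CO1.

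The authors deposited estimated counts per gene, which summed to between 19950537 and 26394267 per library. The lowest count of any of the 15 genes was 2879, for MT-ATP8 in 2B-OlapR, so counting error was small next to most differences described. Levels are given as normalized CPM, counts in 1000000 counts of a library after TMM scaling, a method that aligns libraries on the genes with moderate ratios. All 10 markers of prostate luminal epithelium were detected in every library. KLK3, which encodes prostate-specific antigen, was at 53.1 normalized CPM in LNCaP and at 1870 to 2685 in the other 3 lines. KRT14, the basal marker measured, was at most at 0.557, CD68 of leukocytes at 0.409 to 5.14, VWF of endothelium at 2.61 to 12.2 and COL1A1 of fibroblasts at 7.14 to 16.1 normalized CPM.

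The LNCaP lines gave the larger share of their counts to mitochondrial RNA. The 13 mRNAs took 6.64% of the counts in LNCaP and 6.58% in LN-OlapR, against 4.58% in C4-2B and 3.81% in 2B-OlapR. The rRNAs included, the shares were 10.1%, 10.3%, 6.50% and 5.69%. The difference between the parental lines thus exceeded that between either resistant line and its parent. In summed normalized CPM, the 13 mRNAs of C4-2B were at 0.685 times their level in LNCaP, those of 2B-OlapR at 0.856 times their level in C4-2B, and those of LN-OlapR at 1.05 times their level in LNCaP. In bulk RNA, a lower level in every cell and a larger part of cells with low levels cannot be told apart, and copies of mitochondrial DNA were not measured.

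Levels of different genes were compared as normalized CPM per kilobase of gene. The 12 heavy-strand mRNAs had a median of 5648, 5734, 3432 and 3257 in LNCaP, LN-OlapR, C4-2B and 2B-OlapR, respectively, on that scale. The highest of them was 7.90, 10.7, 6.28 and 7.42 times the lowest in the same order, although all are cut from 1 kind of transcript. MT-ATP8, the short gene for an ATP synthase subunit, was lowest in every library. These values thus rest on a gene that shares its mRNA with MT-ATP6 and whose level is uncertain, as set out below. Next lowest of the heavy-strand mRNAs was MT-ND3, at 2190, 1976, 1284 and 1397 in the same order. MT-ND3, MT-ND4L, MT-ND5 and MT-ND6, which encode subunits of complex I, filled the ranks from 9 to 12 in all 4 libraries.

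At the top of the order the libraries differed. MT-CO3, which encodes a core subunit of complex IV, was highest in LNCaP, with 9366 normalized CPM per kilobase, and in C4-2B, with 6297. In 2B-OlapR it was at 4923, just below MT-ATP6 at 4984. In LN-OlapR it was at 5728, ranked 7 of 13 and was within counting error of MT-CYB at 5740. There MT-ND4 ranked 1, with 10400, and MT-ND1 ranked 2, with 9936, whereas MT-ND1 ranked 7 in each of the other 3 libraries. MT-CYB, the complex III subunit, ranked 6 and MT-ND2 ranked 8 in all 4 libraries. The top rank in C4-2B depended on the length used. Counted per kilobase of bases that only 1 gene covers, MT-ATP6 was above MT-CO3 there, at 6420 against 6305.

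**Figure D1:**
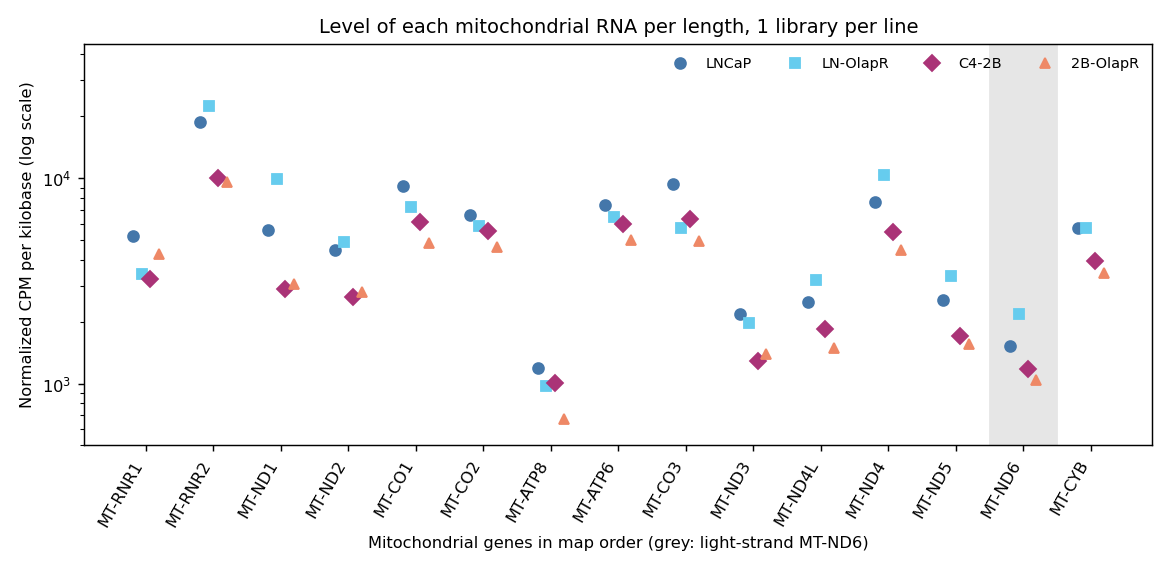
Level of each of the 15 mitochondrial RNAs in 4 libraries, as normalized CPM per kilobase on a log scale, with the genes on the horizontal axis in the order of the map and light-strand MT-ND6 on grey. Each point is 1 library of 1 line. MT-ATP8 was lowest in every library, MT-RNR2 was highest, and MT-ND1 and MT-ND4 of LN-OlapR stood above the other 3 lines.

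Position along the heavy strand was only weakly related to level. Over the 12 heavy-strand mRNAs, Spearman's rho between map order and level per kilobase was -0.084 in LNCaP against -0.224 in LN-OlapR and -0.168 in C4-2B against -0.140 in 2B-OlapR. Map order against the log2 ratio gave a rho of -0.049 for 2B-OlapR over C4-2B, 0.182 for LN-OlapR over LNCaP and 0.238 for C4-2B over LNCaP. These are descriptions across genes that share a transcript and a library. Leaving out the 4 genes of overlapping reading frames took the rho in LN-OlapR to -0.548 and the rho of the ratios to -0.143 in the LNCaP pair and to 0.524 between the parental lines, so the values rested on few genes.

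The first comparison asked how 2B-OlapR differed from C4-2B. Of the 13 mRNAs, 10 were lower and 3 were higher in 2B-OlapR, all by less than 1.5-fold. Of all genes compared, 50% were higher and 50% lower by any amount. No member was past 1.5-fold in either direction, a count of 0 of 15, where 24.2% of the 15527 genes compared were past it, 10.7% higher and 13.5% lower. The median log2 ratio of the mRNAs was -0.24, with a range of the median over genes from -0.33 to 0.07, and that of all genes was 0.00 when rounded. Under scaling by total counts 1 mRNA, MT-ATP8, was past 1.5-fold. Without the genes of overlapping reading frames the median log2 ratio of the mRNAs was -0.17.

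All mRNAs of complex IV and ATP synthase and MT-CYB of complex III were lower in 2B-OlapR. MT-ATP8 had the lowest log2 ratio, -0.58 (-0.65 to -0.51), and went from 1002 to 671 normalized CPM per kilobase. MT-CO3 had -0.36 (-0.37 to -0.34), MT-CO1, the catalytic subunit of complex IV, had -0.33 (-0.34 to -0.32), MT-ATP6 had -0.26 (-0.28 to -0.25) and MT-CO2 had -0.24 (-0.26 to -0.23). Complex I was divided. MT-ND4 and MT-ND4L, which share an mRNA, both had -0.30, MT-ND6 had -0.17 and MT-ND5 -0.13, whereas MT-ND1 had 0.07 (0.06 to 0.09), MT-ND2 0.08 (0.07 to 0.10) and MT-ND3 0.12 (0.08 to 0.16). MT-CYB had -0.19.

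As a share of the mRNA pool, complex I mRNAs were 39.8% for C4-2B and 42.5% for 2B-OlapR, and complex IV mRNAs were 40.5% and 37.9%. Those of ATP synthase were 9.58% and 9.25% and MT-CYB was 10.1% and 10.4%. No single mRNA had a pool share that differed by 1.5-fold in this pair, a count of 0 of 13.

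LN-OlapR differed from LNCaP in which mRNAs were abundant more than in how much there was in all. Of the 13 mRNAs, 7 were higher and 6 lower in LN-OlapR, and of all genes 49.6% were higher and 50.4% lower by any amount. At 1.5-fold, 1 mRNA, MT-ND1, was higher and 1, MT-CO3, was lower, where 21.4% of 15373 genes compared were past it, 10.6% higher and 10.8% lower, so the number of mRNAs past 1.5-fold did not stand out from the table. With MT-RNR1, 2 of the 15 members were lower. The median log2 ratio of the mRNAs was 0.00, with a range of the median over genes from -0.28 to 0.45. The 7 higher mRNAs include MT-CYB, with a log2 ratio of 0.003 and an interval from -0.007 to 0.013, which was lower under scaling by total counts.

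Set out along the map, the directions changed a few times, an order that was noticed after the values were seen. MT-RNR1 was lower and MT-RNR2 higher in LN-OlapR. MT-ND1 and MT-ND2, next to the rRNAs, were higher in LN-OlapR. The next 6 mRNAs along the heavy strand, from MT-CO1 to MT-ND3, were all lower. MT-ND4L, MT-ND4 and MT-ND5, which follow, were higher again, as was MT-ND6 on the other strand. MT-CYB, the last mRNA of the heavy strand, was close to 0.

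MT-ND1 (chrM:3307-4262), a core subunit of complex I, was at 5569, 9936, 2897 and 3048 normalized CPM per kilobase in LNCaP, LN-OlapR, C4-2B and 2B-OlapR, respectively. LN-OlapR was the highest of the 4, and its log2 ratio to LNCaP was 0.84 (0.83 to 0.84), or 1.78-fold. MT-ND2, its neighbour on the heavy strand, was at 4465, 4891, 2631 and 2784 in the same order, with a log2 ratio of 0.13 in LN-OlapR over LNCaP. The ratio of MT-ND1 to MT-ND2 was 1.25, 2.03, 1.10 and 1.09 in LNCaP, LN-OlapR, C4-2B and 2B-OlapR, respectively. The excess of MT-ND1 over MT-ND2 was thus largest in LN-OlapR.

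MT-CO3 (chrM:9207-9990) differed the other way in LN-OlapR. It was at 9366 normalized CPM per kilobase in LNCaP against 5728 in LN-OlapR and 6297 in C4-2B against 4923 in 2B-OlapR, and its log2 ratio in LN-OlapR over LNCaP was -0.71 (-0.72 to -0.70). MT-CO1, at 9165 and 7204 in this pair, had -0.35, and MT-CO2, at 6600 and 5840, had -0.18. The genes of complex IV thus were lower by unequal amounts, and the ratio of MT-CO1 to MT-CO3 was 1.26 in LN-OlapR against 0.979 in LNCaP, 0.966 in C4-2B and 0.982 in 2B-OlapR.

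MT-ND4 (chrM:10760-12137), a core complex I subunit, was at 7614, 10400, 5488 and 4443 normalized CPM per kilobase in LNCaP, LN-OlapR, C4-2B and 2B-OlapR, respectively. Its log2 ratio in LN-OlapR over LNCaP was 0.45 (0.44 to 0.46). Per kilobase, MT-ND4 was at 0.813 times MT-CO3 in LNCaP and at 1.82 times MT-CO3 in LN-OlapR, while the values were 0.871 and 0.903 in the C4-2B lines. This ratio, taken inside each library, does not depend on how libraries were scaled against nuclear genes. The other mRNAs higher in LN-OlapR were MT-ND6 with 0.51, MT-ND5 with 0.40 and MT-ND4L with 0.35, and the lower ones were MT-ATP8 with -0.28, MT-ATP6 with -0.19 and MT-ND3 with -0.15.

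By complex, mRNAs of complex I made up 42.0% of the pool in LNCaP and 55.1% in LN-OlapR. Those of complex IV made up 39.9% and 28.6%, those of ATP synthase 8.07% and 6.73%, and MT-CYB 10.03% and 9.56%. LN-OlapR stood apart from the other 3 libraries, which had between 39.8% and 42.5% in complex I and between 37.9% and 40.5% in complex IV. Within the pool, the share of MT-ND1 was 8.17% in LNCaP and 13.9% in LN-OlapR, and that of MT-CO3 was 11.3% and 6.55%. These were the 2 shares that differed by at least 1.5-fold.

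**Figure D2:**
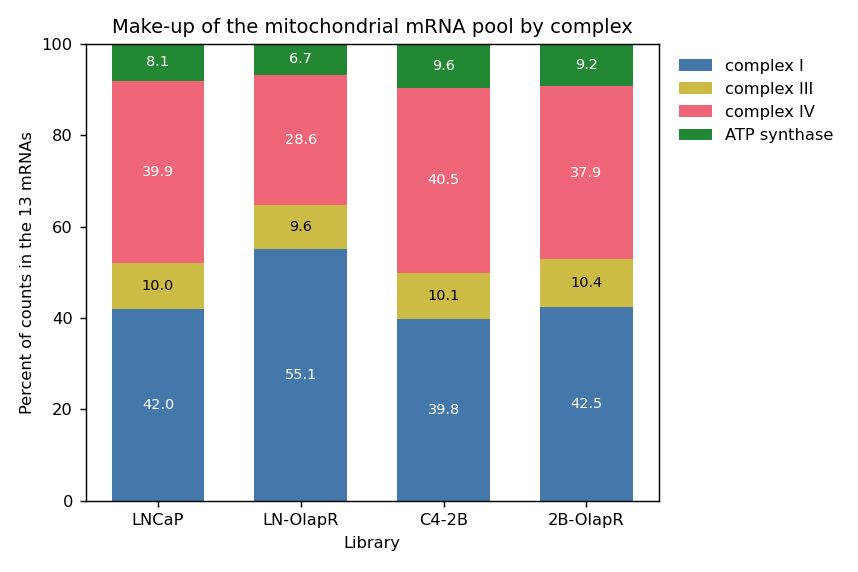
Make-up of the 13-mRNA pool in each library, as the percent of counts in the mRNAs of complex I (7 genes), complex III (1 gene), complex IV (3 genes) and ATP synthase (2 genes). Complex I took 55.1% in LN-OlapR and 39.8% to 42.5% in the other 3 libraries.

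Set side by side, the resistant lines shared a direction for some mRNAs. MT-ND1 and MT-ND2 were higher in both, a count of 2 of 13, and 5, MT-CO1, MT-CO2, MT-ATP8, MT-ATP6 and MT-CO3, were lower in both. MT-ND3 was higher in 2B-OlapR and lower in LN-OlapR, and the last 5, MT-ND4L, MT-ND4, MT-ND5, MT-ND6 and MT-CYB, were lower in 2B-OlapR and higher in LN-OlapR, where the log2 ratio of MT-CYB was within counting error of 0. Of the 14602 genes compared in both pairs, 28.5% were higher in both, 29.1% lower in both and 42.4% opposite, so the number of mRNAs that shared a direction, 7 of 13, did not stand out from the table. The 2 comparisons share no library. Across the 13 mRNAs their log2 ratios had a Spearman's rho of 0.566 and a Pearson's r of 0.449, given as a description of genes that share transcripts.

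The parental lines were then compared with each other. All 13 mRNAs and both rRNAs were lower in C4-2B than in LNCaP. At 1.5-fold, 5 of the 13 mRNAs were lower, MT-ND1, MT-ND2, MT-CO1, MT-ND3 and MT-ND5, and 0 were higher. With both rRNAs, 7 of the 15 members were lower. Of the 15580 genes compared, 32.1% were past 1.5-fold, 16.1% lower and 16.1% higher. By any amount, 51.4% of all genes compared were lower and 48.6% higher. The median log2 ratio of the mRNAs was -0.53 (-0.76 to -0.30), against -0.016 for all genes. MT-CO1 and MT-ND5 stood so close to 1.5-fold that 3 of the 13 mRNAs were past it under scaling by total counts or by upper quartile factors.

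MT-ND1 and MT-ND2, the first mRNAs after the rRNAs, and MT-ND3 differed most. MT-ND1 had a log2 ratio of -0.94 (-0.96 to -0.93), MT-ND3 of -0.77 (-0.81 to -0.73) and MT-ND2 of -0.76 (-0.78 to -0.75). MT-CO1 and MT-ND5, both with -0.59, followed, and MT-CO3, with -0.57 (-0.58 to -0.56), was just inside it. MT-CYB had -0.53, MT-ND4 -0.47, MT-ND4L -0.43 and MT-ND6 -0.38. The block of MT-CO2, MT-ATP8 and MT-ATP6 differed least, with -0.26, -0.24 and -0.30. MT-CO2, for example, was at 6600 normalized CPM per kilobase in LNCaP and 5502 in C4-2B.

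Within the pool the parental lines were alike in comparison. The pool share of no mRNA differed by 1.5-fold, a count of 0 of 13, and the log2 ratios of shares ran from -0.40 for MT-ND1 to 0.30 for MT-ATP8. Complex I made up 42.0% in LNCaP and 39.8% in C4-2B and complex IV 39.9% and 40.5%. The parental difference was thus mostly one of pool size, and that in LN-OlapR mostly one of make-up. This comparison shares a library with each of the other comparisons, so its ratios were not correlated with theirs.

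**Figure D3:**
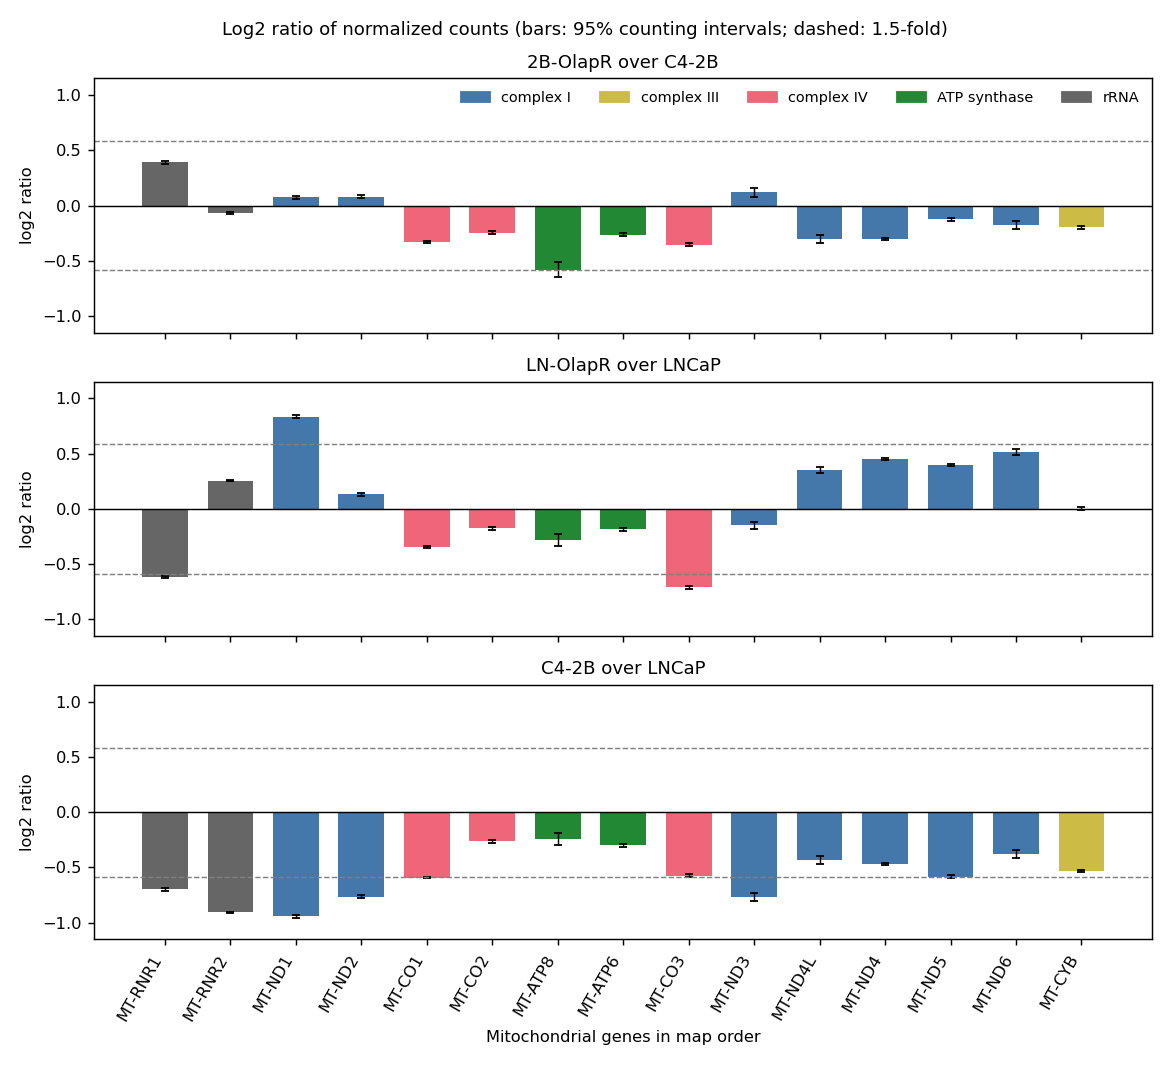
Log2 ratio of normalized counts for each of the 15 genes in map order, for 2B-OlapR over C4-2B, LN-OlapR over LNCaP and C4-2B over LNCaP, with bars coloured by complex, 95% counting intervals as whiskers and 1.5-fold as dashed lines. From MT-CO1 to MT-ND3 all 6 mRNAs were below 0 in LN-OlapR over LNCaP, and all 15 genes were below 0 in C4-2B over LNCaP.

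MT-ND6 (chrM:14149-14673, minus strand) is the mRNA of the light strand and encodes a complex I subunit. It was at 1521, 2172, 1170 and 1039 normalized CPM per kilobase in LNCaP, LN-OlapR, C4-2B and 2B-OlapR, respectively. LN-OlapR had the highest level and 2B-OlapR the lowest. Relative to the median of the 12 heavy-strand mRNAs of the same library, MT-ND6 stood at 26.9% in LNCaP and 37.9% in LN-OlapR. It stood at 34.1% in C4-2B and 31.9% in 2B-OlapR. LN-OlapR, C4-2B and 2B-OlapR thus all had relatively more light-strand mRNA than LNCaP.

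Relative to MT-ND5, its neighbour on the heavy strand, the difference in LN-OlapR was smaller. MT-ND5 was at 2548, 3356, 1698 and 1557 normalized CPM per kilobase in LNCaP, LN-OlapR, C4-2B and 2B-OlapR, respectively. The ratio of MT-ND6 to MT-ND5 was 0.597 (0.588 to 0.606), 0.647 (0.639 to 0.656), 0.689 (0.676 to 0.703) and 0.667 (0.654 to 0.681) in the same order. MT-ND5 and MT-ND6 went in the same direction in every comparison, despite their separate transcripts. As the libraries were selected for mRNA, the yield of MT-ND6 and of the rRNAs can depend on that step. The 18 RNAs found of 21 listed as mostly without a poly(A) tail, largely histone mRNAs and small structural RNAs, summed to 765, 490, 888 and 745 normalized CPM in LNCaP, LN-OlapR, C4-2B and 2B-OlapR, respectively. The median log2 ratio of those that passed the filter on low counts was -0.48 in 2B-OlapR over C4-2B (13 genes), -0.24 in LN-OlapR over LNCaP (14 genes) and 0.34 in C4-2B over LNCaP (13 genes). The sum was lowest in LN-OlapR, where MT-ND6 was highest, but much of its difference from LNCaP lay in the histone gene H1-2. H1-2 was at 202.4 normalized CPM in LNCaP and 25.9 in LN-OlapR. RN7SL1 was at 80.3 and 77.6 and RN7SL2 at 80.6 and 80.8 in the same order. The sum is thus a poor measure of what was carried through the selection, whose part in the level of MT-ND6 was not tested.

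The rRNAs differed from each other in both resistant lines. MT-RNR1, the 12S rRNA of the small ribosomal subunit, was at 5256 normalized CPM per kilobase in LNCaP against 3430 in LN-OlapR and 3243 in C4-2B against 4251 in 2B-OlapR. MT-RNR2, the 16S rRNA of the large subunit, was at 18748, 22388, 10008 and 9543 in the same order. Against its parent, the 12S rRNA was past 1.5-fold lower in LN-OlapR, with a log2 ratio of -0.62 (-0.63 to -0.60), and higher in 2B-OlapR, with 0.39 (0.38 to 0.41). The 16S rRNA had 0.26 in LN-OlapR and -0.07 in 2B-OlapR.

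Both rRNAs are cut from the same heavy-strand transcript and lie side by side with a tRNA gene between them, at chrM:648-1601 and chrM:1671-3229. The ratio of 16S to 12S per kilobase was 3.57 (3.55 to 3.59) in LNCaP against 6.53 (6.48 to 6.58) in LN-OlapR, and 3.09 (3.06 to 3.11) in C4-2B against 2.24 (2.23 to 2.26) in 2B-OlapR. LN-OlapR had a ratio 1.83-fold above that of LNCaP, and 2B-OlapR had one 1.37-fold below that of C4-2B. Selection for mRNA is not meant to keep rRNA, and how much of each was carried through it was not tested. Between the parental lines, both were past 1.5-fold lower in C4-2B, with -0.70 for 12S and -0.91 for 16S, and their ratio was 1.16-fold lower in C4-2B. MT-ND1, the gene that follows MT-RNR2, stood at 0.297, 0.444, 0.289 and 0.319 times the level of MT-RNR2 in LNCaP, LN-OlapR, C4-2B and 2B-OlapR, respectively.

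**Figure D4:**
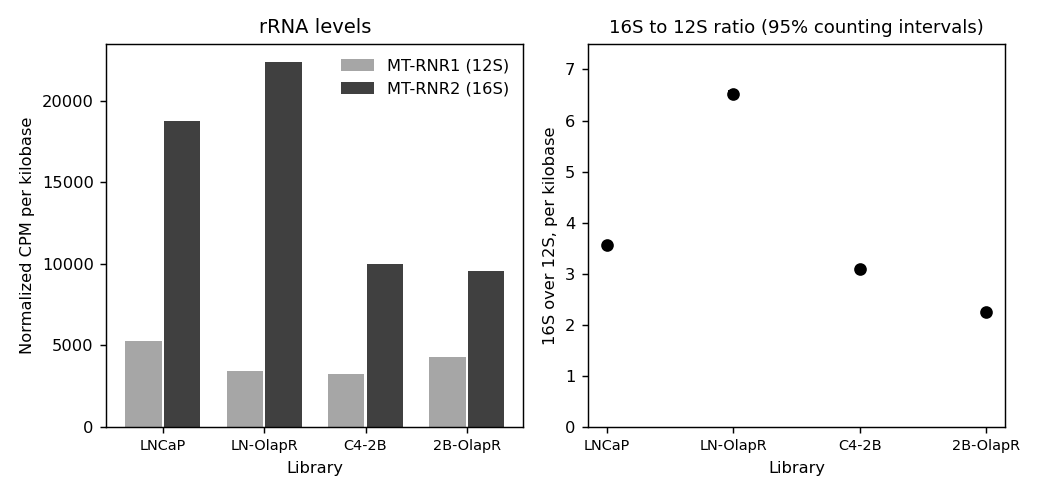
Left, normalized CPM per kilobase of the 12S (MT-RNR1) and 16S (MT-RNR2) rRNAs in each library, with bars from 0. Right, their ratio, with counting intervals that are smaller than the points, which ran from 2.24 in 2B-OlapR to 6.53 in LN-OlapR.

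The overlapping reading frames gave unequal levels from 1 mRNA. MT-ATP8 and MT-ATP6 are translated from a shared mRNA, as are MT-ND4L and MT-ND4. The level of MT-ATP8 per kilobase was 16.1%, 15.1%, 16.8% and 13.5% of that of MT-ATP6 in LNCaP, LN-OlapR, C4-2B and 2B-OlapR, respectively. MT-ND4L was at 32.7%, 30.6%, 33.6% and 33.6% of MT-ND4 in the same order. Counted per kilobase of bases that only 1 gene covers, MT-ATP8 was at 1524, 1254, 1289 and 863 and MT-ATP6 at 7910, 6958, 6420 and 5353 in the same order. Only the length differs on this scale, and reads from the shared bases are still in the counts. How the counting assigned reads from the 46 and 7 shared bases shown above is not given in the sources used here. For this reason the levels of MT-ATP8 and MT-ND4L are uncertain. Over the 3 comparisons these ratios differed by at most 1.24-fold for MT-ATP8 over MT-ATP6, in 2B-OlapR against C4-2B.

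Nuclear DNA holds copies of mitochondrial genes that can take up their reads. The table had 22 such genes, which summed to between 0.0820% and 0.123% of the counts of a library. The 5 with the most counts were MTATP6P1, MTCO1P12, MTND4P12, MTCO3P12 and MTCO2P12, of which all but MTND4P12 lie next to each other on chromosome 1, from 631074 to 634922. MTATP6P1 had 17624 counts in LNCaP against 14301 in LN-OlapR and 11487 in C4-2B against 9526 in 2B-OlapR, which was 13.1%, 13.9%, 13.8% and 13.5% of the counts of MT-ATP6. Its level followed that of MT-ATP6 closely over the 4 lines. Over 681 aligned bases it had 10 differences from MT-ATP6 (98.53% identity) and a longest identical stretch of 141 bases. The stretch with the most differences is shown with these in capitals, at chrM:8642-8701 and, for the copy, chr1:633811-633870 on the plus strand.
MT-ATP6 window: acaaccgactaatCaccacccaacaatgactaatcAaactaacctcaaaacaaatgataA
MTATP6P1 window: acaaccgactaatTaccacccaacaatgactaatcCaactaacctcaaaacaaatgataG
The other named copies had fewer counts. MTCO1P12 held 1.83%, 1.51%, 2.22% and 2.13% of the counts of MT-CO1 in the same order, with 98.64% identity. MTCO2P12, MTCO3P12 and MTND4P12 held between 0.422% and 1.61% of those of their mitochondrial genes, with identities of 97.95%, 98.18% and 95.72%. Reads of these pairs are uncertain, since the copies differ from the mitochondrial genes at few bases. Of the nuclear copies that passed the filter on low counts, the median log2 ratio was -0.26 in 2B-OlapR over C4-2B (13 genes), -0.10 in LN-OlapR over LNCaP (15 genes) and -0.36 in C4-2B over LNCaP (14 genes).

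The nuclear genes that copy, transcribe, cut and protect mitochondrial RNA were examined as a list of 48 genes, all of which were expressed. In 2B-OlapR over C4-2B, 2 were at least 1.5-fold higher and 1 lower, with a median log2 ratio of -0.03. In LN-OlapR over LNCaP, 3 were higher and 0 lower, with a median of -0.07. In C4-2B over LNCaP, 2 were higher and 4 lower, with a median of 0.06. These shares were below those of all genes given above in each comparison. All genes reach down to a mean of 1 normalized CPM, whereas the lowest level of the list in any library was 6.06. Shares at matched levels were not computed.

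TFAM, which packages mitochondrial DNA and starts its transcription, had the lowest log2 ratio of the list between the parental lines. It was at 91.7, 90.1, 42.9 and 28.7 normalized CPM in LNCaP, LN-OlapR, C4-2B and 2B-OlapR, respectively. Both C4-2B lines were below both LNCaP lines, as for the pool of the 13 mRNAs. The log2 ratio was -1.10 (-1.21 to -0.99) in C4-2B over LNCaP, -0.58 (-0.73 to -0.43) in 2B-OlapR over C4-2B and -0.03 (-0.11 to 0.06) in LN-OlapR over LNCaP. POLRMT, the polymerase itself, did not follow this order, with 71.9, 71.7, 90.0 and 102.0 normalized CPM in LNCaP, LN-OlapR, C4-2B and 2B-OlapR, respectively. Whether the level of TFAM has a part in the size of the pool was not tested.

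Other genes past 1.5-fold between the parental lines were TRNT1, which adds the CCA end of tRNAs, with a log2 ratio of -0.85 in C4-2B over LNCaP, MGME1, a mitochondrial exonuclease, with -0.67, and 2 members of the FASTK family of RNA-binding proteins. FASTK itself is known to be needed for MT-ND6 mRNA. It had a log2 ratio of 0.86 (0.78 to 0.93) in C4-2B over LNCaP, the highest of the list, and 0.70 (0.63 to 0.78) in LN-OlapR over LNCaP, again the highest, but 0.12 in 2B-OlapR over C4-2B. Its levels were 92.0 normalized CPM in LNCaP against 149.6 in LN-OlapR and 166.5 in C4-2B against 180.9 in 2B-OlapR. LNCaP, with the least FASTK, also had the lowest MT-ND6 relative to the heavy-strand median. The other lines did not keep this order. 2B-OlapR had the most FASTK, but its MT-ND6 was at 31.9% of that median, below C4-2B (34.1%) and LN-OlapR (37.9%). Per kilobase, MT-ND6 was lowest in 2B-OlapR, at 1039. C4-2B had more FASTK than LNCaP but less MT-ND6, with a log2 ratio of -0.38. The part of FASTK in the level of MT-ND6 was not tested. TBRG4, of the same family, had 0.61 between the parental lines.

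In LN-OlapR over LNCaP the other genes past 1.5-fold were TOP1MT, the mitochondrial topoisomerase, with 0.68, and SSBP1, the single-stranded DNA-binding protein of mitochondria, with 0.62. MRM2, which methylates the 16S rRNA, had the lowest log2 ratio of the list there, -0.46. In 2B-OlapR over C4-2B, REXO2, an exonuclease for short RNAs, was highest, at 44.0 normalized CPM for C4-2B and 94.9 for 2B-OlapR, a log2 ratio of 1.11 (0.99 to 1.22). PRIMPOL, a primase and polymerase, was lowest, with -0.68 (-1.01 to -0.37) from 10.4 and 6.47 normalized CPM. TFB1M was the other gene at least 1.5-fold higher, with 0.73 (0.41 to 1.07) from 6.06 and 10.1 normalized CPM.

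The proteins known to stabilize mitochondrial mRNAs differed less. LRPPRC was at 162.7, 199.7, 168.9 and 146.3 normalized CPM in LNCaP, LN-OlapR, C4-2B and 2B-OlapR, respectively. SLIRP, its partner, was at 88.8, 103.9, 107.9 and 79.7 in the same order. Against their parents, 2B-OlapR had less of both, with log2 ratios of -0.21 and -0.44, and LN-OlapR more, with 0.30 and 0.23. In C4-2B over LNCaP, where the pool of the 13 mRNAs was smaller, LRPPRC had 0.05, with an interval from -0.01 to 0.12, and SLIRP 0.28. Whether these levels have a part in those of the mRNAs was not tested. GRSF1, which binds RNA in mitochondrial granules, was at 182.1, 187.8, 137.9 and 194.6 in the same order.

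**Figure D5:**
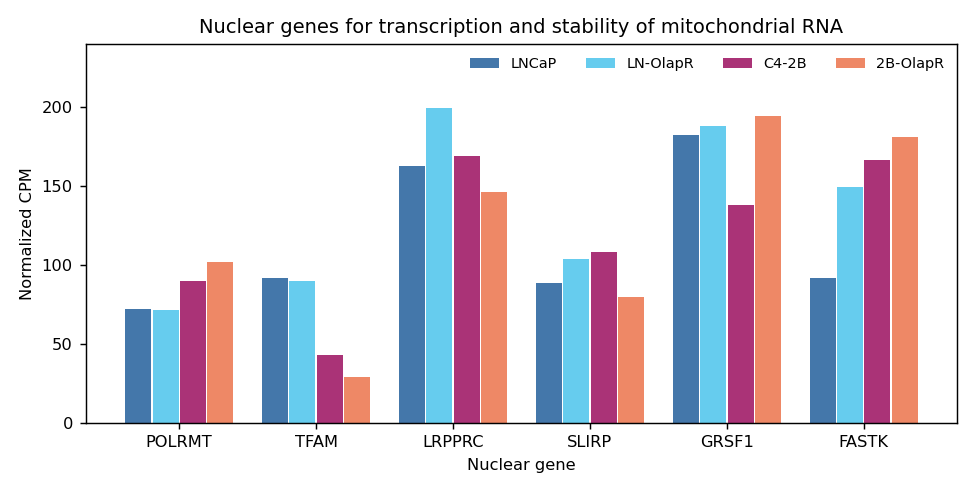
Normalized CPM of 6 nuclear genes for transcription and stability of mitochondrial RNA in the 4 libraries, 1 bar per library, from 0. TFAM was at 91.7 and 90.1 in the LNCaP lines and at 42.9 and 28.7 in the C4-2B lines, and POLRMT was at 71.7 to 102.0.

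Subunits of the same complexes encoded in the nucleus and in the mitochondrion were set side by side. In C4-2B over LNCaP the median log2 ratio of nuclear subunits was 0.04 for 37 genes of complex I, 0.35 for 9 of complex III, 0.14 for 11 of complex IV and 0.10 for 18 of ATP synthase. Their mitochondrial counterparts had -0.59, -0.53, -0.57 and -0.27. For ATP synthase these are only MT-ATP8 and MT-ATP6, which share an mRNA, here and below. The nuclear medians were thus at or above 0 and the mitochondrial ones below it in every complex. The intervals over genes of the nuclear medians included 0 for complex I (-0.04 to 0.17), complex IV (-0.09 to 0.50) and ATP synthase (-0.02 to 0.34). Of the nuclear subunits, 0 were at least 1.5-fold lower in any of the 4 groups, and 3 of complex I and 1 of complex III were higher, a smaller share than the 16.1% of all genes past 1.5-fold in each direction. Their lowest level in any library was 30.9 normalized CPM, and shares at matched levels were not computed here either.

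The medians had the same contrast in 2B-OlapR over C4-2B. The mitochondrial ones were -0.13 for complex I, -0.19 for MT-CYB, -0.33 for complex IV and -0.42 for ATP synthase, and the nuclear ones were 0.20, 0.18, 0.10 and 0.14. Of the ATP synthase genes, MT-ATP6 had -0.26 and MT-ATP8, whose level is uncertain, had -0.58. The interval over genes included 0 for mitochondrial complex I (-0.30 to 0.12), where 3 of 7 genes were higher, and for nuclear complex IV (-0.19 to 0.42). In LN-OlapR over LNCaP the contrast depended on the complex. For complex I both medians were above 0, with 0.40 (-0.15 to 0.84) for the mitochondrial and 0.15 (0.06 to 0.24) for the nuclear subunits. For complex III, MT-CYB had 0.00 and the nuclear median was 0.22 (-0.07 to 0.25). For complex IV the mitochondrial median was -0.35 and the nuclear one 0.17 (-0.02 to 0.30). For ATP synthase they were -0.23 and 0.10 (0.01 to 0.19).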

How the data were processed

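RNA of 4 cell lines, 1 library each, had been isolated with TRIzol, and 100 ng had gone into stranded libraries selected for mRNA. The values deposited by the authors are estimated counts of each gene, without scaling between libraries. The submitters' notes name STAR, Partek and GRCh38 (hg38). The tool that counted, its treatment of reads with several matches and the annotation are not given in the sources used here. No gene of the table had a sum under 10.0 over its 4 libraries, and 46.2% of the values were not whole. They were rounded to whole numbers.

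TMM factors were computed with edgeR 4.0.16 (R 4.3.3), and other steps used Python 3.11.15 with numpy 2.4.6, pandas 2.3.3 and SciPy 1.17.1. Plots were drawn with matplotlib 3.10.9. Log2 ratios used a pseudocount of 0.5 counts. Genes were compared where the mean of a pair reached 1 normalized CPM, and all 15 mitochondrial genes passed in every comparison. Intervals are conditional binomial for ratios, Clopper-Pearson for shares and binomial over genes for medians. With 1 library per line no model was fitted and no p-value computed, and a gene was counted when past 1.5-fold. On simulated counts for the comparison of 2B-OlapR with C4-2B (15527 genes), all 200 genes changed 4-fold were called. As 4-fold lies far past the 1.5-fold limit, this was close to sure beforehand, and smaller changes were not simulated. Of 15327 unchanged genes, 278 were called, and the intervals held the true ratio for 95.57% of genes. No spread between cultures could be measured for the simulation, so these figures bear on counting error only. They do not show how many genes past 1.5-fold in the real libraries would be so in other cultures.

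GENCODE release 29 gave positions, lengths and sequences. All 15 identifiers matched it. The genes and lists were chosen with earlier results of these data known. Named are all genes whose symbol starts with MT-, the 5 nuclear copies with the most counts and, of the 48-gene list, the highest and lowest ratio per comparison, those past 1.5-fold that had a mean of 10 normalized CPM or more, and POLRMT, TFAM, LRPPRC, SLIRP, GRSF1 and FASTK. KLK3, KRT14, CD68, VWF and COL1A1 are named as cell type markers, chosen among the list after their values were seen. TFB1M, H1-2, RN7SL1 and RN7SL2 are named in addition, also after their values were seen. Alternatives were scaling by total counts, DESeq2 1.42.0 size factors, upper quartile factors or TMM without the MT- genes, a pseudocount of 2, unrounded counts, other filters, a 2-fold limit, and other sets of genes, denominators or lengths.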

Additional observations from a re-analysis of the deposited data

Results flagged for a closer look

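With 1 library per line, each item here is a gene or ratio that was higher in one resistant line and lower in the other, each against its own parent. These differences were not tested. The log2 ratio of MT-RNR1 (12S rRNA) was 0.39 in 2B-OlapR over C4-2B and -0.62 in LN-OlapR over LNCaP, and that of MT-RNR2 (16S rRNA) was -0.07 and 0.26. The 16S to 12S ratio, which is taken inside each library, differed from its parent by -0.46 in 2B-OlapR and by 0.87 in LN-OlapR on the log2 scale. Among the mRNAs, MT-ND3 had 0.12 in 2B-OlapR and -0.15 in LN-OlapR.

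The genes toward the end of the heavy strand formed a run with the opposite signs. MT-ND4L had -0.30 in 2B-OlapR and 0.35 in LN-OlapR, MT-ND4 had -0.30 and 0.45, and MT-ND5 had -0.13 and 0.40. MT-ND6, on the light strand, had -0.17 and 0.51. A gene was listed only if both intervals lay clear of 0 and the opposite directions held under each of the scalings tried. That these 7 genes kept their directions was thus fixed by the choice. By sign alone 8 of the 15 genes went opposite ways, and so did 42.4% of all 14602 genes compared in both pairs.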

How the results depend on the processing

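No paired analysis was possible because the labels carry no replicate numbers and each line had 1 library, so there was also no replicate to leave out. A model that takes the 2 resistant lines as replicates of 1 condition, each paired with its parent, was not run. The medians of the 13 mRNAs moved by less than their intervals under every scaling, pseudocount, rounding and gene set tried. Of 270 log2 ratios of single genes under other scalings, another pseudocount or unrounded counts, 1 changed sign, MT-CYB in LN-OlapR over LNCaP, with -0.08 under total counts, which was also the median of the 13 mRNAs there, and 6 changed side of 1.5-fold. No scaling shifted the median of all genes by more than 0.0842. The 16S to 12S ratio with nuclear MTRNR2L genes added has no value, as no such gene was among those used here, and tRNAs have none.

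The number of mRNAs past 1.5-fold lower was 1 in 2B-OlapR over C4-2B under total counts, and 3 in C4-2B over LNCaP under total counts and under upper quartile factors. At 2-fold, the counts were 0 higher and 0 lower in LN-OlapR over LNCaP and 0 lower in C4-2B over LNCaP.

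The background counts depended on the limit and on the filter. In 2B-OlapR over C4-2B, genes past the limit were 687 higher and 877 lower at 2-fold, 3531 and 4080 with a minimum mean of 0.1 CPM, 651 and 846 with a minimum of 10, and 3893 and 4481 with no filter. In LN-OlapR over LNCaP they were 713 and 742, 3535 and 3602, 666 and 582, and 3801 and 3888 in the same order. In C4-2B over LNCaP they were 1246 and 1118, 4715 and 4419, 1162 and 1131, and 4929 and 4785.

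Of counts outside the MT- genes, the 13 mRNAs came to 7.38%, 7.34%, 4.90% and 4.04% in LNCaP, LN-OlapR, C4-2B and 2B-OlapR, respectively. With nuclear copies added, their share of all counts was 6.76%, 6.69%, 4.68% and 3.89%, and with all MT- genes it was 10.1%, 10.3%, 6.50% and 5.69%. MT-ND6 over MT-ND5 in place of the heavy-strand median was 0.597, 0.647, 0.689 and 0.667, in which LN-OlapR no longer had the highest value. With the rRNAs added, the rho of map order with level was -0.200 in LNCaP and -0.301 in 2B-OlapR, and that with the ratio was -0.354 in 2B-OlapR over C4-2B and 0.451 in C4-2B over LNCaP. Without the overlapping reading frames it was -0.548 for level in LN-OlapR, and -0.143 and 0.524 for the ratio in LN-OlapR over LNCaP and C4-2B over LNCaP. The cause was not tested.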
